A study of Mus musculus with 24 samples.

Results

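Chemokines are small secreted proteins that steer the movement of immune, endothelial and progenitor cells, and chemokine receptors are the G-protein-coupled receptors that read them. The genes described here were taken from the count table by symbol: every CC, CXC and CX3C ligand (Ccl, Cxcl and Cx3cl genes), every receptor named Ccr, Cxcr or Cx3cr, and every atypical receptor named Ackr. The rule found 59 genes of the 24537 in the table, 38 ligands (24 CC, 13 CXC and 1 CX3C) and 21 receptors (17 classical and 4 atypical).

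The libraries came from a mouse model of partial reprogramming in muscle. All animals carried the 4F cassette, a doxycycline (Dox) driven transgene for Oct4, Sox2, Klf4 and c-Myc (OSKM), and an rtTA activator blocked by a stop cassette. In Acta1-Cre+/4Fhet mice (Cre+) the skeletal actin promoter drives Cre, so the stop is removed in myofibers and not in other cells, and Acta1-Cre-/4Fhet mice (Cre-) were the controls. Mice of both genotypes were 2 months old. Their water held Dox at 1 mg/ml for 2.5 days, 5.5 days or 8.5 days, after which RNA of whole EDL (fast-twitch) and SOL (soleus, slow-twitch) muscles was sequenced, with 2 libraries in each of 12 groups. The study removed samples without OSKM overexpression and reported none of 5.5 days, so the 5.5-day samples are described apart from the rest.

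Whole muscle holds myofibers together with vessels, fibroblasts, nerves and resident immune cells, and a chemokine transcript can come from any of these. Myofibers and fibroblasts are known sources of ligands, macrophages carry Ccr2 and Cx3cr1, and endothelium carries atypical receptors, which bind chemokines without G-protein signalling and remove or transport them. In bulk RNA, fewer cells of a type and less RNA per cell cannot be told apart.

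The libraries held 36088781 to 54679082 counted reads. Summed slow myofiber transcripts separated the muscles as labelled, at 218 to 1724 FPKM in the EDL libraries and 31968 to 44536 FPKM in the SOL libraries of 2.5 and 8.5 days. Summed Oct4, Sox2, Klf4 and c-Myc transcripts stood at 9.48 to 25.2 FPKM in the Cre- groups, at 74.5 to 261 in Cre+ EDL of 2.5 and 8.5 days and at 31.3 to 57.8 in Cre+ SOL of those days. FPKM here is the count divided by exon length and by the library's total, and a log2 difference is the fitted value of edgeR's quasi-likelihood test after TMM scaling. A gene was called at an adjusted p under 0.05 and a log2 difference beyond 0.5 in either direction, with the Benjamini-Hochberg adjustment taken over all genes tested. Permuting 2 libraries against 2 can give no exact p below 0.333, so every p that follows comes from the fit across all genes, and it measures the spread between libraries whose origin from separate mice the labels do not state.

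Many chemokine genes sit in compact clusters and share elements that bind NF-kappaB, the factor that inflammatory cytokines activate, or the interferon-stimulated response element (ISRE). Of the 59 genes, 43 had an entry among the RefSeq promoters of GRCm38.p6, and the 250 bases before the start were searched on both strands. A member counted once if any of its entries matched, whereas all promoters were counted by entry, so the shares below differ in unit. The NF-kappaB consensus was present in 11 of the 43 (25.6%) and in 7.25% of all 32851 promoters. The ISRE letters GAAANNGAAA were found in 3 of the 43 (6.98%), against 2.98% of all promoters. The GAS letters TTCNNNGAA were found in 6.98% and 7.02%, and the E-box CACGTG, the Myc site, in 2.33% and 6.02%. A match is a description of the letters and not of a bound factor. The stretches below are those of Cxcl10, which holds both the ISRE and the NF-kappaB consensus, and of the 4 genes with the NF-kappaB consensus among the 12 that rose between 2.5 and 8.5 days and had an entry. Capitals mark the matches, on either strand. In Cxcl10 the first run in capitals is the ISRE and the last holds 2 overlapping NF-kappaB matches.
Cxcl10 (chr5:92348968-92349117, minus strand): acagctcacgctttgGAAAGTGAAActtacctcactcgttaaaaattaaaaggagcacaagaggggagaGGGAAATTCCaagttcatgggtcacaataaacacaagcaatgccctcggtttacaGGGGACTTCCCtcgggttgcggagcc
Cxcl1 (chr5:90891140-90891199, plus strand): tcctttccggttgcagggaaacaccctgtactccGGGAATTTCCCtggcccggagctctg
Ccl9 (chr11:83578647-83578706, minus strand): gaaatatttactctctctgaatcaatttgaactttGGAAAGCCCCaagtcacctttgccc
Ccr1 (chr9:123968742-123968801, minus strand): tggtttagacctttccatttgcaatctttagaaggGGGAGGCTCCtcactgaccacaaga
Ccr3 (chr9:124021757-124021816, plus strand): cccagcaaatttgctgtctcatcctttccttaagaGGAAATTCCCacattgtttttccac

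Most chemokine signal in these muscles came from a few genes. Ccl11 (eotaxin), Ackr3, Cxcl12, Cxcl14, Ccl6 and Ackr1 together held 75.2% of the summed mean level of the 59 genes, which was 133 FPKM over the 16 libraries of 2.5 and 8.5 days. Ccl11, the ligand of the eosinophil receptor Ccr3, had the highest mean at 28.5 FPKM ± 13.1 (SD, n = 16). Next were Ackr3, a scavenger of Cxcl12, at 20.8 ± 6.13 FPKM, Cxcl12 at 20.1 ± 7.70 FPKM and Cxcl14 at 18.1 ± 6.24 FPKM, so the first 4 genes in the order did not differ beyond their spread. The order also varied between groups. Cxcl12 had a higher mean than Ackr3 in SOL of both genotypes, and a higher mean than Ccl11 in Cre+ SOL but not in Cre- SOL. Cxcl14 stood above Ccl11 in 3 of the 4 EDL libraries of 2.5 days. Ccl6 stood at 6.78 ± 3.89 FPKM and Ackr1, the chemokine-binding protein of venules, at 5.36 ± 2.19 FPKM. Only 16 of the 59 genes reached a mean of 1 FPKM.

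The classical receptors were lower than their ligands. The most abundant was Cxcr4, the signalling receptor for Cxcl12, at 2.27 ± 0.47 FPKM, followed by Ccr2, the monocyte receptor for Ccl2, at 1.20 ± 0.69 FPKM. The other 15 classical receptors had means under 1 FPKM. Among the atypical receptors Ackr4 was also under 1 FPKM, at 0.859 ± 0.466 FPKM.

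Low counts kept many genes out of the tests. In the 16 libraries 34 genes passed the filter of 10 counts, 23 ligands and 11 receptors, and all 4 atypical receptors were among them. The other 25 had at most 18 counts and at most 0.307 FPKM in any of the 24 libraries, and 17 of these had at most 3 counts everywhere. Ccl20, Cxcl15, Ccl21b and Ccl21c were at 0 in all 24 libraries, but Ccl21b and Ccl21c lie in a repeated stretch of chromosome 4 and the study counted only uniquely aligned reads. The 59 genes lie on 11 chromosomes.

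**Figure D1:**
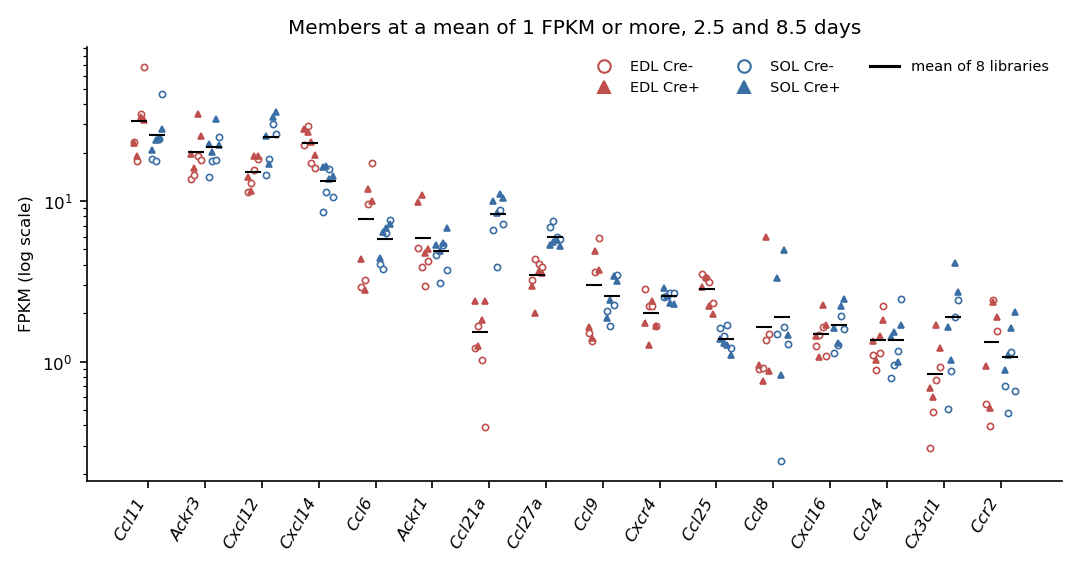
Level of each member with a mean of at least 1 FPKM (log scale) in the 16 libraries of 2.5 and 8.5 days, with EDL in red, SOL in blue, Cre- as open circles, Cre+ as filled triangles and black lines for the mean of 8 libraries. Ccl11, Ackr3, Cxcl12 and Cxcl14 lead, Ccl21a is higher in every SOL library than in any EDL library, and Ccl25 is higher in every EDL library.

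The first comparison asked how OSKM in myofibers moved these genes in EDL. At 2.5 days 4 of the 34 genes were called (11.8%), against 24% of all genes tested, so chemokine genes were called at a lower share than the table as a whole. The atypical receptor Ackr1 rose, and Cxcr4, Ackr4 and Ccl27a fell. The median log2 difference of the 34 genes was -0.18, beside -0.05 for all genes. With libraries scaled by their total counts alone these medians were 0.14 and 0.28, since that scaling shifts all genes of Cre+ EDL upwards.

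Among the receptors, Ackr1 had 5.12 and 3.86 FPKM in the Cre- EDL libraries of 2.5 days and 9.82 and 10.9 FPKM in the Cre+ libraries. Both Cre+ libraries were higher than any other library of the 24. The log2 difference was 0.88 ± 0.27 (SE; edgeR adjusted p = 0.027), but the call was lost when any 1 of the 4 libraries was left out (log2 0.71 to 1.07, adjusted p up to 0.18).

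Cxcr4 had 2.84 and 2.22 FPKM in Cre- EDL at 2.5 days and 1.74 and 1.26 FPKM in Cre+ EDL. The groups did not overlap, and the log2 difference was -1.07 ± 0.23 (edgeR adjusted p = 0.0044). It stayed called without each library except Cre+ replicate 2, the library with the most OSKM RNA of that group, where the log2 difference was -0.82 and the adjusted p 0.055. At 8.5 days Cxcr4 stood at 2.21 and 1.65 FPKM in Cre- EDL and 2.36 and 1.65 FPKM in Cre+ EDL, so those groups overlapped.

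Ackr4, which scavenges Ccl19, Ccl21 and Ccl25, had 1.57 and 1.15 FPKM in Cre- EDL at 2.5 days and 0.914 and 0.719 FPKM in Cre+ EDL. The Cre+ libraries were both lower, with a log2 difference of -1.05 ± 0.29 (edgeR adjusted p = 0.016). With scaling by library size alone it was -0.73 and not called (edgeR adjusted p = 0.060), and without Cre- replicate 1 or Cre+ replicate 2 the call was also lost. Ackr4 lies across from Acad11, an acyl-CoA dehydrogenase gene on the opposite strand, and 479 of its 5380 exon bases in GENCODE are also exon of Acad11. Acad11 fell in the same comparison, by 0.81 on the log2 scale (edgeR adjusted p = 0.00057), and the strand setting of the counting is not given in the sources used here, so the part of Acad11 reads in the Ackr4 counts was not tested.

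Ccl27a was the only ligand called. This ligand of Ccr10 had 3.22 and 4.36 FPKM in Cre- EDL at 2.5 days and 2.94 and 1.99 FPKM in Cre+ EDL, a log2 difference of -0.94 ± 0.23 (edgeR adjusted p = 0.0098). Both Cre+ libraries were lower, although the gap between 3.22 and 2.94 FPKM was small, and the call was lost without Cre+ replicate 2 or Cre- replicate 2. Ccl27a shares 8 exon bases with Il11ra1 on the opposite strand, and Il11ra1 also fell, by 0.63 on the log2 scale (edgeR adjusted p = 0.017).

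A single library decided the count at 2.5 days. Without Cre+ EDL replicate 2, none of the 36 members then tested was called by edgeR, without either Cre- library 2 were, and without Cre+ replicate 1 3 were. Of the blood vessel markers 7 of 11 fell in Cre+ EDL at 2.5 days, beside 1566 of 15372 genes tested. Their summed level was 143 to 148 FPKM against 172 to 188 in Cre-. No macrophage marker of 16 was called in that comparison, against 24% of all genes. Their summed levels were 85.1 to 125 FPKM in Cre+ and 92.8 to 116 in Cre-. The part of the vessel markers in the changes of Ackr1, Ackr4 and Cxcr4 was not tested.

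**Figure D2:**
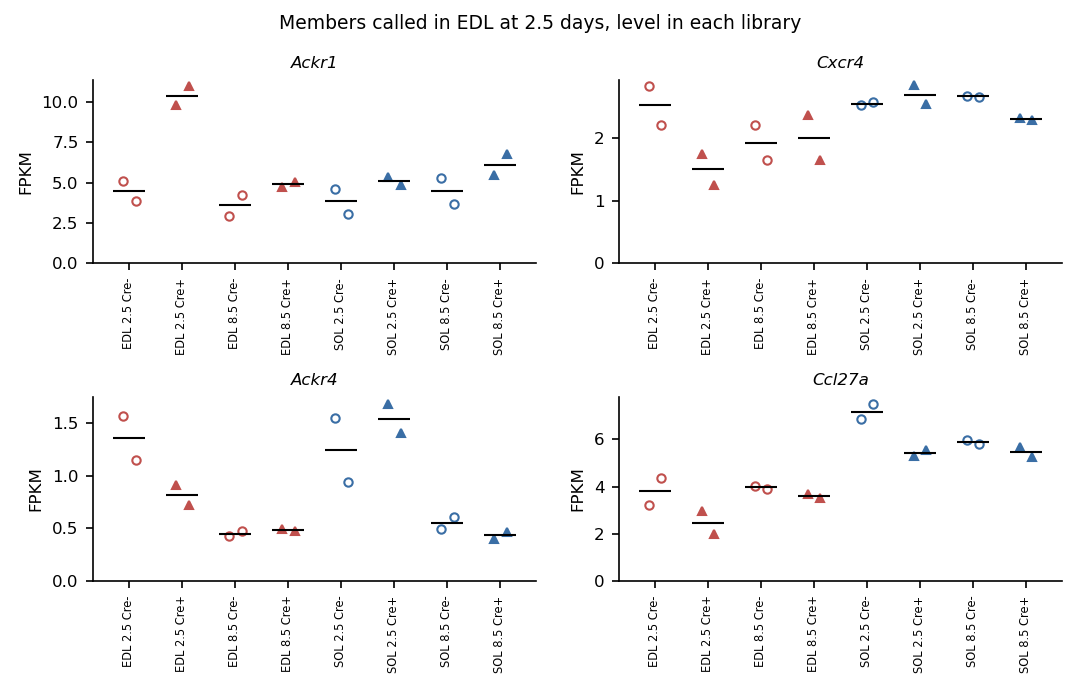
Level in FPKM of the 4 members called in EDL at 2.5 days, in each library of the 8 groups of 2.5 and 8.5 days (open circles Cre-, filled triangles Cre+, red EDL, blue SOL, black line the mean of 2 libraries). Ackr1 is highest in Cre+ EDL at 2.5 days, at 9.82 and 10.9 FPKM, and Ackr4 is lower at 8.5 than at 2.5 days in all 4 pairs of groups.

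At 8.5 days in EDL no member was called by edgeR, against 14.1% of all genes tested, and 4 of 34 were under an unadjusted p of 0.05, against 29.8% of all genes. DESeq2 on the same libraries called 2, Ccl21a and Ccl11. Ccl21a, the lymphatic ligand of Ccr7, had 1.03 and 0.392 FPKM in Cre- EDL and 1.81 and 2.40 FPKM in Cre+ EDL (log2 difference 1.41 ± 0.45, edgeR adjusted p = 0.053). Ccl11 had 34.8 and 68.4 FPKM in Cre- EDL and 33.4 and 31.9 FPKM in Cre+ EDL (log2 difference -0.85 ± 0.30, edgeR adjusted p = 0.075). Its Cre- mean rested on replicate 2, since replicate 1 lay close to the Cre+ libraries. Ackr3 had 18.9 and 17.9 FPKM in Cre- and 34.9 and 25.5 FPKM in Cre+, with a log2 difference of 0.52 ± 0.19 that also missed the threshold (edgeR adjusted p = 0.087).

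Over the mean of both days in EDL 4 members were called, against 24.1% of all genes. Ackr1 rose (log2 0.57 ± 0.19, edgeR adjusted p = 0.033), and Ccl27a (-0.63 ± 0.16, 0.0095), Cxcr4 (-0.60 ± 0.16, 0.012) and Ccl25 (-0.50 ± 0.16, 0.030) fell. Ccl25, the ligand of Ccr9, had 3.51 and 3.32 FPKM in Cre- EDL and 2.91 and 3.35 FPKM in Cre+ EDL at 2.5 days, which overlap. At 8.5 days it had 3.14 and 2.30 FPKM in Cre- and 2.23 and 1.99 FPKM in Cre+, and its call was lost in 5 of 8 alternative fits. With scaling by library size alone the 4 calls were Cx3cl1, Ackr3, Ccl21a and Ackr1, all higher in Cre+, so the split of 1 higher and 3 lower turned to 4 higher and 0 lower. In the 8 fits without 1 library the call of Ackr1 was lost in 6, that of Ccl25 in 7, that of Cxcr4 in 4 and that of Ccl27a in 2. The count ranged from 1 to 4: it was 1 without Cre+ replicate 2 or Cre- replicate 2 of 2.5 days or without Cre+ replicate 2 of 8.5 days, and 2 without Cre- replicate 1 of 2.5 days or Cre+ replicate 1 of 8.5 days. All 4 of these calls were lost without Cre+ replicate 2 of 2.5 days, so the member counted there was another. The EDL change at 2.5 days was also set against that at 8.5 days. No member was called in that difference by edgeR or DESeq2, as for 0% of all genes in edgeR, and 5 of 34 were under an unadjusted p of 0.05, against 9.56% of all genes.

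Other genes of the chemokine pathway were followed in a list of 44 symbols, of which 43 were in the table and 40 were tested. In EDL at 2.5 days 4 rose and 1 fell, a smaller share than the 24% of all genes called there. The kinase Grk6 (log2 1.15 ± 0.16, edgeR adjusted p = 0.00025) and the arrestin Arrb1 (1.29 ± 0.21, 0.00067) shut off and internalise activated receptors, and the proteoglycan Sdc4 (1.29 ± 0.29, 0.0058) binds chemokines at the cell surface. The same 4 genes, Arrb2 included, were also called higher at 8.5 days, and the G-protein subunit Gng2 was called lower on both days. Of 31 tested genes that switch chemokines on, 3 rose and 5 fell at 2.5 days, a share near those 24%. The NF-kappaB inhibitor Nfkbia fell by 0.78 on the log2 scale (edgeR adjusted p = 0.0053), the kinase Jak2 fell by 1.38 (0.0011), and the AP-1 subunit Junb rose by 1.78 (0.0010).

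In SOL no member was called in Cre+ against Cre- at either day or over their mean. At 2.5 days 0.384% of all genes were called by edgeR, and 3 of 34 members were under an unadjusted p of 0.05, against 13.4% of all genes. At 8.5 days 0.631% of all genes were called, and 5 of 34 members were under that limit, against 6.6% of all genes. Over the mean of both days 1.47% of all genes were called, and 5 of 34 members were under the limit, against 16.3%. DESeq2 on the same libraries also called no member in these 3 comparisons.

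The monocyte attractant Ccl2 was the member nearest to a call in SOL at 8.5 days. It had 0.587 and 0.871 FPKM in Cre- SOL and 2.69 and 1.78 FPKM in Cre+ SOL, both Cre+ libraries being higher (log2 difference 1.58 ± 0.47, edgeR adjusted p = 0.31). Its receptor Ccr2 had 1.15 and 0.651 FPKM in Cre- SOL and 1.61 and 2.02 FPKM in Cre+ SOL (log2 0.97 ± 0.37, edgeR adjusted p = 0.58). Cx3cl1 (fractalkine), an endothelial ligand that holds Cx3cr1-bearing monocytes, had 1.91 and 2.41 FPKM in Cre- SOL and 4.10 and 2.71 FPKM in Cre+ SOL at 8.5 days (log2 0.62 ± 0.31, edgeR adjusted p = 0.82). Its receptor Cx3cr1 had 0.627 and 0.231 FPKM in Cre- and 0.630 and 1.10 FPKM in Cre+ (0.97 ± 0.49, edgeR adjusted p = 0.82). Of the 34 members 25 had a log2 difference above 0 at 8.5 days, with a median of 0.38 beside -0.01 for all genes. At 2.5 days in SOL 29 of 34 did, with a median of 0.45 beside 0.02 for all genes. These counts were not tested. The 2 Cre- SOL libraries of 8.5 days held liver transcripts, which summed to 51.1 to 140 FPKM there and to 17.2 to 20.8 in Cre+ SOL. At 2.5 days these transcripts summed to 5.03 to 14.3 FPKM in Cre- SOL and to 15.7 to 16.3 in Cre+ SOL. Their part in the SOL values was not tested.

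Whether the OSKM change differed between the muscles was tested as an interaction over both days. No member was called by edgeR or DESeq2, against 8.96% of all genes in edgeR, and 1 of 34 was under an unadjusted p of 0.05, against 26.2% of all genes. That member was Ccl2, whose change was lower in EDL than in SOL by 1.15 on the log2 scale (SE 0.52, edgeR adjusted p = 0.18).

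Resting EDL and SOL differed in a small set of these genes. In Cre- mice, over both days, 6 of 34 members were called (17.6%), against 21.9% of all genes tested. Ccl21a, Cxcl11, Cx3cl1 and Ccl27a were lower in EDL, and Ccl25 and Cxcl14 were higher. The same 6 genes were called in that direction in Cre+ mice, where Cxcl12, Cxcr4 and Cxcl9 were also lower in EDL, for 9 of 34 members (26.5%) against 29.6% of all genes. The same-numbered EDL and SOL libraries deviated from their group means together, and with that number as a mouse the counts were 6 and 12.

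Ccl21a, which guides Ccr7-bearing cells into lymphatics, had 1.21 and 1.65 FPKM in Cre- EDL at 2.5 days and 1.03 and 0.392 FPKM at 8.5 days. In Cre- SOL it had 6.57 and 3.87 FPKM at 2.5 days and 8.81 and 7.14 FPKM at 8.5 days. Every SOL library of 2.5 and 8.5 days was higher than every EDL library of those days. The log2 difference of EDL against SOL was -2.60 ± 0.31 in Cre- (edgeR adjusted p = 3.6e-05) and -2.40 ± 0.29 in Cre+ (3.2e-05). At 5.5 days the muscles overlapped. There the 2 Cre+ EDL libraries had 268 and 18 counts (6.67 and 0.462 FPKM). The 2 Cre+ SOL libraries had 260 and 7 (7.97 and 0.192 FPKM). The lymphatic markers Mmrn1 (log2 -2.21) and Prox1 (-2.72), the latter also made by slow myofibers, were lower in Cre- EDL too. The other 4 of the 6 on that list were not called. In Cre+ EDL 5 of the 6 were called lower, beside 2240 of 15372 genes tested. The summed level of the 6 was 7.82 to 11.8 FPKM in Cre- EDL and 10.2 to 19.2 in Cre- SOL. Ccl21a overlaps the gene model Gm1987 on the same strand, and the 2 rows moved alike, so they cannot be told apart.

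Cxcl11, an interferon-induced ligand of Cxcr3, had 25, 16, 9 and 1 counts in the Cre- EDL libraries and 176, 95, 42 and 101 in the Cre- SOL libraries. The EDL counts correspond to 0.358, 0.222, 0.158 and 0.0153 FPKM and the SOL counts to 2.88, 1.47, 0.694 and 1.54 FPKM. All SOL libraries were higher, and the log2 difference was -3.22 ± 0.43 in Cre- (edgeR adjusted p = 0.00010) and -2.50 ± 0.39 in Cre+ (0.00024). Cxcl9 and Cxcl10, its neighbours within 41.9 kb on chromosome 5 and ligands of the same receptor, had log2 differences of -0.43 ± 0.43 and -0.49 ± 0.75 in Cre- and were not called. Cxcl11 lies within Art3 on the opposite strand without sharing exon bases in GENCODE, and Art3 differed the other way, with 117 to 230 FPKM in EDL and 73.2 to 89.0 in SOL.

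Cx3cl1 was lower in Cre- EDL, with 0.289, 0.482, 0.768 and 0.930 FPKM against 0.503, 0.870, 1.91 and 2.41 FPKM in SOL. The ranges overlapped across days, and within each day both SOL libraries were higher (log2 -0.99 ± 0.24, edgeR adjusted p = 0.0072). Ccl27a had 3.22, 4.36, 4.02 and 3.90 FPKM in Cre- EDL and 6.85, 7.51, 5.98 and 5.80 FPKM in Cre- SOL, without overlap (log2 -0.65 ± 0.16, edgeR adjusted p = 0.0079).

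Ccl25 went the other way. It had 3.51, 3.32, 3.14 and 2.30 FPKM in Cre- EDL and 1.63, 1.44, 1.69 and 1.21 FPKM in Cre- SOL (log2 1.12 ± 0.17, edgeR adjusted p = 0.00028). Cxcl14, a ligand made by many epithelia and by muscle, had 22.1, 29.2, 17.3 and 15.9 FPKM in Cre- EDL and 8.55, 11.4, 15.9 and 10.6 FPKM in Cre- SOL (log2 0.94 ± 0.15, edgeR adjusted p = 0.00036). Neither gene's groups overlapped, although for Cxcl14 the lowest EDL and the highest SOL library were both close to 15.9 FPKM.

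Cxcl12 and its receptor Cxcr4 were called between the muscles in Cre+ mice. Cxcl12, which retains Cxcr4-bearing stem and immune cells, had 14.1, 11.6, 19.1 and 19.1 FPKM in Cre+ EDL and 25.5, 17.0, 33.4 and 35.6 FPKM in Cre+ SOL. Both SOL libraries were higher at each day (log2 -0.86 ± 0.14, edgeR adjusted p = 0.00037). Cxcr4 had 1.74, 1.26, 2.36 and 1.65 FPKM in Cre+ EDL and 2.85, 2.54, 2.31 and 2.29 FPKM in Cre+ SOL (log2 -0.59 ± 0.16, edgeR adjusted p = 0.011), with libraries that overlapped at 8.5 days, and its call was lost without Cre+ EDL replicate 2 of either day. In Cre- mice Cxcl12 differed by -0.49 ± 0.14 (edgeR adjusted p = 0.017), just inside the fold threshold. Ackr3, which also binds Cxcl12, was not called between the muscles in either genotype. Of the blood vessel markers 6 of 11 were lower in Cre+ EDL, beside 2240 of 15372 genes tested. In Cre- EDL 1 of 11 was lower, beside 1702 of 15372. Cxcl9, an interferon-induced ligand of Cxcr3, was lower in Cre+ EDL by 1.13 ± 0.42 on the log2 scale (edgeR adjusted p = 0.044), with libraries that overlapped. That call was lost in 5 of the 8 fits without 1 library (log2 -1.47 to -0.47, edgeR adjusted p up to 0.35) and also with library size alone and with all 24 libraries. In the same comparison 9 of 29 interferon-response genes were lower in Cre+ EDL, beside those 2240 of 15372 genes. In either direction 29.6% of all genes were called there. The part of these vessel and interferon genes was not tested.

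**Figure D3:**
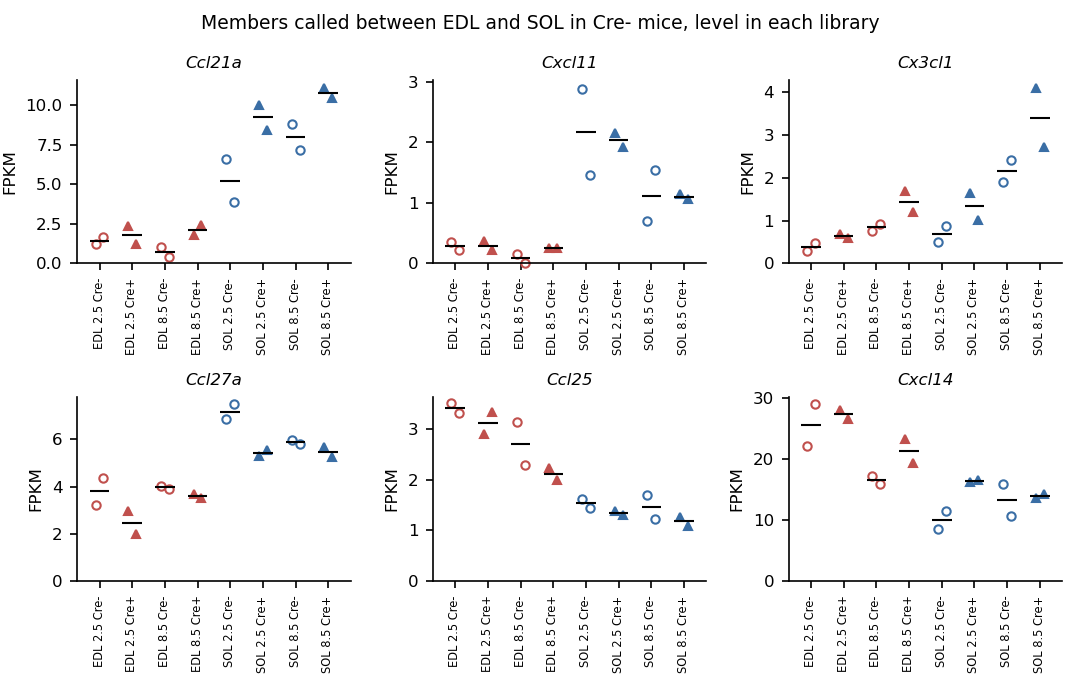
Level in FPKM of the 6 members called between EDL and SOL in Cre- mice, in each library of the 8 groups of 2.5 and 8.5 days (open circles Cre-, filled triangles Cre+, red EDL, blue SOL, black line the mean of 2 libraries). Ccl21a and Cxcl11 stay near the floor of the plot in EDL and are higher in every SOL library, while Ccl25 and Cxcl14 are higher in EDL.

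The widest movement of these genes was between days of Dox, a comparison chosen after the values were seen. In EDL, with Cre+ and Cre- averaged, 15 of 34 members differed between 8.5 and 2.5 days (44.1%), against 5.88% of all genes tested. Of these 13 were higher at 8.5 days (3.86% of all genes), among them the ligands Ccl6, Ccl7, Ccl9, Ccl11, Ccl17, Cxcl12 and Cx3cl1 and the receptors Ccr1, Ccr2, Ccr3, Cx3cr1 and Ackr3, and Ackr1 and Ackr4 were lower. In SOL 11 of 34 members differed (32.4%), against 10.3% of all genes. Of these 10 were higher (7.33% of all genes) and Ackr4 was lower. Both genotypes drank Dox, the days were different animals, and the day of Dox and anything else that differed between the days cannot be told apart. The 5.5-day libraries were not in this comparison, so it does not show a steady course. Cxcl12 had 8.41 to 13.5 FPKM in EDL at 5.5 days, against 11.4 to 14.1 at 2.5 days and 15.5 to 19.1 at 8.5 days. In SOL it had 10.9 to 15.5 FPKM, against 14.6 to 25.5 and 26.1 to 35.6. Ccl6 in EDL had 4.5 to 8.5 FPKM at 5.5 days, between its values of the other days.

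The myeloid ligands Ccl6 and Ccl9 are neighbours on chromosome 11 and rose together in EDL. Ccl6 had 2.90, 3.20, 4.36 and 2.78 FPKM in the EDL libraries of 2.5 days and 9.55, 17.3, 11.8 and 9.93 FPKM in those of 8.5 days (Cre- replicates 1 and 2 first, then Cre+). All libraries of 8.5 days were higher, with a log2 difference of 1.89 ± 0.21 (edgeR adjusted p = 0.00073). Ccl9 had 1.51, 1.35, 1.64 and 1.40 FPKM at 2.5 days and 3.59, 5.87, 4.89 and 3.69 FPKM at 8.5 days (1.63 ± 0.18, edgeR adjusted p = 0.00084). Both were called in Cre- and in Cre+ EDL alone, as was Ccr2. In SOL the log2 differences were 0.63 ± 0.20 for Ccl6, which was not called (edgeR adjusted p = 0.057), and 0.64 ± 0.18 for Ccl9 (0.034), whose SOL call held in 2 of the 8 fits without 1 library. In EDL the calls of Ccl6 and Ccl9 held in all 8.

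The monocyte receptors rose with them in EDL. Ccr2 had 0.543, 0.398, 0.933 and 0.510 FPKM at 2.5 days and 2.42, 1.55, 2.36 and 1.89 FPKM at 8.5 days (log2 1.83 ± 0.27, edgeR adjusted p = 0.0024). Cx3cr1 had 0.0966, 0.0819, 0.106 and 0.0481 FPKM at 2.5 days and 0.362, 0.167, 0.588 and 0.568 FPKM at 8.5 days (2.23 ± 0.41, 0.0075 by edgeR). The groups did not overlap for either gene. Ccr1, a receptor for Ccl3 and Ccl5 on monocytes, rose by 2.04 ± 0.38 on the log2 scale (edgeR adjusted p = 0.0084). In SOL Cx3cr1 rose by 2.22 ± 0.39 (edgeR adjusted p = 0.0038), from 0.091 to 0.156 FPKM at 2.5 days to 0.231 to 1.10 FPKM at 8.5 days. The log2 difference of Ccr2 in SOL was 0.77 ± 0.26 and was not called (edgeR adjusted p = 0.067).

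Ccr3, the eotaxin receptor of eosinophils, rested on few reads. It had 0, 0, 2 and 1 counts in EDL at 2.5 days and 9, 7, 22 and 29 at 8.5 days, a ratio per counted read of 22.8 (95% interval 7.48 to 113, for counting error only). Its ligand Ccl11 had 23.3, 17.6, 22.9 and 18.9 FPKM at 2.5 days and 34.8, 68.4, 33.4 and 31.9 FPKM at 8.5 days in EDL (log2 1.01 ± 0.21, edgeR adjusted p = 0.015). All libraries of 8.5 days were higher, and 1 of them, Cre- replicate 2, stood far above the rest.

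Cx3cl1 and Cxcl12 were called in both muscles. Cx3cl1 rose by 1.17 ± 0.24 in EDL (edgeR adjusted p = 0.014) and by 1.52 ± 0.23 in SOL (0.0019), from 0.503 to 1.65 FPKM at 2.5 days to 1.91 to 4.10 FPKM at 8.5 days in SOL. Cxcl12 rose by 0.54 ± 0.14 in EDL (edgeR adjusted p = 0.035) and by 0.76 ± 0.14 in SOL (0.0052), from 14.6 to 25.5 FPKM to 26.1 to 35.6 FPKM in SOL. In the 8 fits without 1 library the EDL calls of Cxcl12 and Cx3cl1 were lost in 6 and 2 and their SOL calls in none, and in each genotype alone Cxcl12 was called in neither muscle. Ackr3 was called in EDL alone, by 0.59 ± 0.14 (edgeR adjusted p = 0.023), with 0.41 ± 0.14 in SOL (edgeR adjusted p = 0.060).

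Ccl2 and Ccl7, adjacent genes for ligands of Ccr2, had low counts and rose in SOL. Ccl2 had 0.258, 0.213, 0.539 and 0.426 FPKM at 2.5 days and 0.587, 0.871, 2.69 and 1.78 FPKM at 8.5 days (log2 1.93 ± 0.37, edgeR adjusted p = 0.0066), without overlap. In EDL Ccl2 was just past the threshold on the other side (1.23 ± 0.35, edgeR adjusted p = 0.051). Ccl7 rose by 2.42 ± 0.45 in SOL (edgeR adjusted p = 0.0054) and by 1.65 ± 0.40 in EDL (0.026). Ccl17 and Ccl22, ligands of Ccr4 that flank Cx3cl1 within 66.4 kb on chromosome 8, were near 0 at 2.5 days, with at most 6 and 7 counts in any library, and reached 62 and 28 counts at 8.5 days. Ccl17 was called in both muscles and Ccl22 in SOL, and the SOL libraries overlapped for Ccl17, with 4 counts in Cre- replicate 1 of 8.5 days. The neutrophil attractant Cxcl1 rose by 1.47 ± 0.41 in SOL (edgeR adjusted p = 0.032), as did Cxcl16, the ligand of Cxcr6, by 0.64 ± 0.18 (0.033). Of the 8 fits without 1 library, the calls of Cxcl1 and Cxcl16 in SOL and of Ccl7 and Ccl17 in EDL each held in 2, and none of these 4 held in either genotype alone.

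Ackr4 was the gene called lower at 8.5 days in both muscles. It had 1.57, 1.15, 0.914 and 0.719 FPKM at 2.5 days and 0.421, 0.470, 0.493 and 0.471 FPKM at 8.5 days in EDL (log2 -1.16 ± 0.21, edgeR adjusted p = 0.0077). In SOL it had 1.55, 0.938, 1.68 and 1.40 FPKM and then 0.496, 0.606, 0.393 and 0.469 FPKM (-1.49 ± 0.21, edgeR adjusted p = 0.0013). The groups did not overlap in either muscle, and Acad11 across from it differed by -0.15 and -0.09 with no call. Ackr1 was lower at 8.5 days in EDL (-0.67 ± 0.19, edgeR adjusted p = 0.048), which rested on the Cre+ libraries, as the difference was -0.36 in Cre- alone, and its call was lost in 7 of the 8 fits without 1 library.

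Some markers of immune, stromal and vessel cells and some other chemokine pathway genes were also called higher at 8.5 days. The shares of all genes called higher, to be read beside each count below, were 3.86% in EDL and 7.33% in SOL. A count of 1 rests on a single gene. Of the 16 macrophage markers 5 were called higher in EDL and 6 in SOL. Their summed level went from 85.1 to 125 FPKM at 2.5 days to 150 to 238 FPKM at 8.5 days in EDL, and from 97.5 to 140 to 126 to 188 FPKM in SOL. Of 8 tested neutrophil markers 1 was called higher in EDL and 4 in SOL. Of 10 dendritic and mast cell markers 3 were called higher in EDL and 2 in SOL. Of 12 fibroblast markers 1 was called higher in EDL and 3 in SOL, where Col1a1, a collagen chain, differed by 1.47 ± 0.29 on the log2 scale (edgeR adjusted p = 0.0079). The summed fibroblast markers went from 1120 to 1716 FPKM at 2.5 days to 2121 to 2848 FPKM at 8.5 days in SOL, without overlap, and from 1864 to 3085 FPKM to 2222 to 3874 FPKM in EDL, with overlap. At 5.5 days they stood at 932 to 1218 FPKM in SOL and 974 to 1853 FPKM in EDL. Of 11 blood vessel markers 2 were called higher in EDL (Kdr and Cldn5, each by 1.28 on the log2 scale) and 3 in SOL. Of 10 liver transcripts 9 were called higher in SOL at 8.5 days, where the Cre- libraries held most of them. Of 40 tested pathway genes 13 were called higher in EDL and 15 in SOL, and none lower. The 3 most abundant in EDL were Cd74, a receptor for Mif and a chaperone of antigen presentation (log2 1.57 ± 0.29, edgeR adjusted p = 0.0077), the platelet chemokine Pf4 (0.66 ± 0.16, 0.026) and the adhesion molecule Icam1 (1.03 ± 0.27, 0.035). In SOL they were Cd74 (1.20 ± 0.29, edgeR adjusted p = 0.017), the chemerin receptor Cmklr1 (0.89 ± 0.18, 0.0079) and the proteoglycan Sdc1 (1.03 ± 0.17, 0.0030). Of 31 tested inducers 5 were called higher in each muscle, with Junb, Egr1 and the interleukin-1 receptor Il1r1 the most abundant in EDL (log2 0.95, 1.71 and 0.52). In SOL Junb and Egr1 rose by 0.98 and 2.82 on the log2 scale, and Jak2 was the 1 inducer called lower, at -0.54. Erythroid genes, a sign of blood in the muscle, went the other way in EDL. Hba-a1 and Hba-a2 (log2 -1.14 each, edgeR adjusted p = 0.024) were called lower at 8.5 days. So were Hbb-b1 and Hbb-bs (-0.94 each, edgeR adjusted p = 0.048), while Hbb-bt, Alas2 and Slc4a1 were not called. Their sum in EDL was 913 to 2331 FPKM at 2.5 days and 613 to 1031 at 8.5 days. In SOL it was 317 to 629 and 559 to 649 FPKM. The part of all these markers in the chemokine differences, those of Ccl11 and Cxcl12 included, was not tested.

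The day counts depended on how many libraries entered. In Cre- EDL alone 4 members were called and in Cre+ EDL alone 9, and in SOL the counts were 2 and 5. None of the called day differences changed sign in either genotype alone. The EDL count was 8 without Cre+ or Cre- replicate 2 of 2.5 days, 9 without Cre- replicate 1 of 2.5 days, and 10 to 14 without each other library. With only genes at 10 or more counts in every library, where 18 members remain, the counts were 8 in EDL and 5 in SOL.

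**Figure D4:**
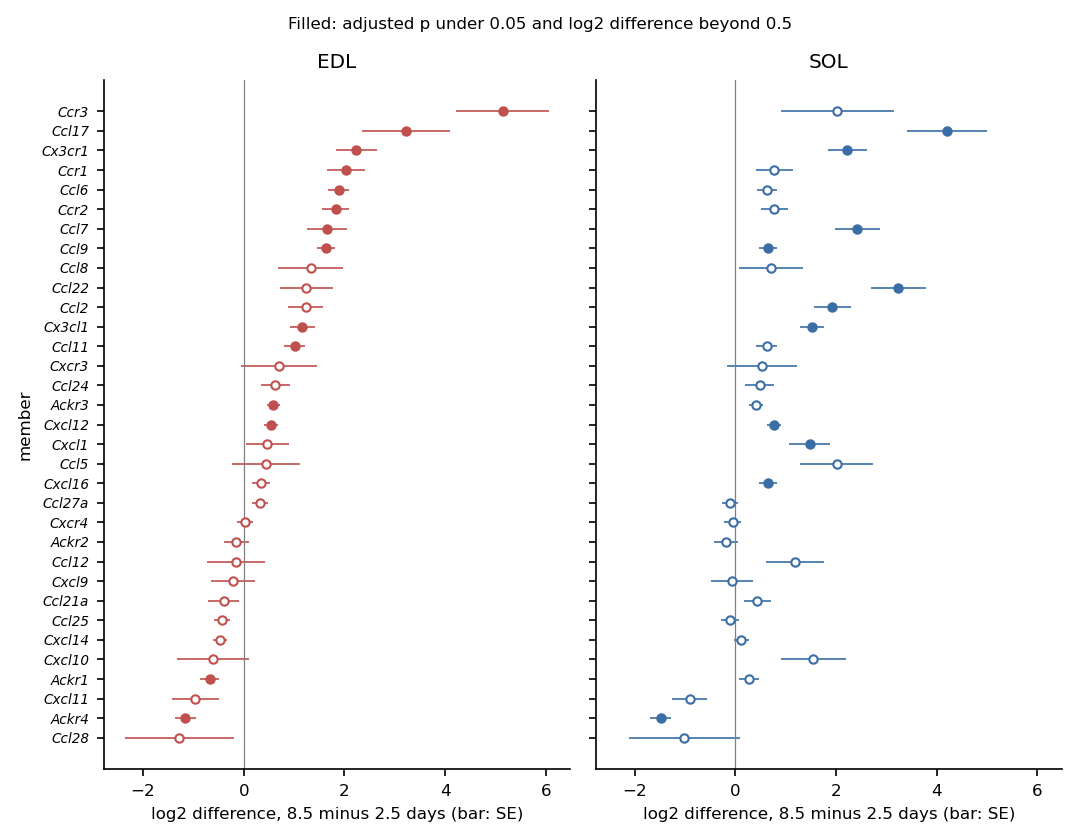
Log2 difference between 8.5 and 2.5 days of Dox (points, with the standard error as bars) for members tested, in EDL and SOL with Cre+ and Cre- averaged, where filled points passed the adjusted p and fold thresholds. The filled points lie to the right of 0 except Ackr4 in both muscles and Ackr1 in EDL, and the points for Ccr3 and Ccl17 rest on few reads at 2.5 days.

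The 5.5-day libraries were compared in a fit of all 24 libraries, in which 36 members were tested. Summed Oct4, Sox2, Klf4 and c-Myc transcripts stood at 13.1 and 109 FPKM in Cre+ EDL, against 11.5 to 11.8 in Cre- EDL. In Cre+ SOL they stood at 8.43 to 15.4 FPKM, not above the 15.7 to 16.1 of Cre- SOL. The SOL comparison therefore cannot show an effect of OSKM, and the EDL comparison rests on unequal induction. No member was called in EDL by edgeR or DESeq2, against 0.304% of all genes in edgeR, and 4 were under an unadjusted p of 0.05, against 8.44% of all genes. No member was called in SOL by edgeR or DESeq2, against 0% of all genes in edgeR, and 1 was under an unadjusted p of 0.05, against 3.86% of all genes.

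The genes named in this paragraph were chosen after their values were seen. In the Cre- mice of 5.5 days, replicate 1 stood apart from replicate 2 in some interferon-induced ligands. Cxcl9 had 241 and 48 counts in the 2 Cre- EDL libraries and 615 and 57 in the Cre- SOL libraries. Cxcl10 had 84 and 3 counts in EDL and 151 and 14 in SOL, and Ccl5 had 38 and 6 in EDL and 88 and 3 in SOL. Replicate 1 was the higher library in both muscles for all 3 genes. Cxcl11, also interferon-induced, split less, with 20 and 10 counts in Cre- EDL and 138 and 91 in Cre- SOL. Summed interferon-response genes were 217 FPKM in replicate 1 and 70.5 in replicate 2 of EDL, and 1125 and 118 FPKM in SOL. In Cre+ SOL of 5.5 days, Ccl17 had 240 counts in replicate 1 and 0 in replicate 2, and Ccl22 had 114 and 1. A like split stood in Cre+ SOL of 8.5 days, where Cxcl9 had 359 and 82 counts, Cxcl10 had 98 and 17, and the summed interferon-response genes were 369 and 140 FPKM. Cxcl11 did not share it, with 94 and 83 counts in those libraries. The part of the interferon response in these counts was not tested.

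Ccl28, a mucosal ligand of Ccr3 and Ccr10, differed widely between the 2 libraries of a group. In Cre- EDL of 2.5 days it had 133 and 9 counts, with 88 and 9 in the same-numbered SOL libraries. In Cre+ EDL of 2.5 days it had 2 and 227 counts, with 7 and 122 in SOL. In Cre- of 5.5 days it had 100 and 2 counts in EDL and 82 and 1 in SOL. The higher library of EDL carried the same number as the higher library of SOL in 6 of 6 groups. Over the 12 pairs of same-numbered libraries, for which the labels do not say whether they share a mouse, Pearson's r of log2(FPKM + 0.1) was 0.97 and Spearman's rho 0.94. Ccl28 had the highest correlation of deviations from the group means among the 36 members compared (r = 0.99), ahead of Ccl22 and Ccl25 at 0.88 each.

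**Figure D5:**
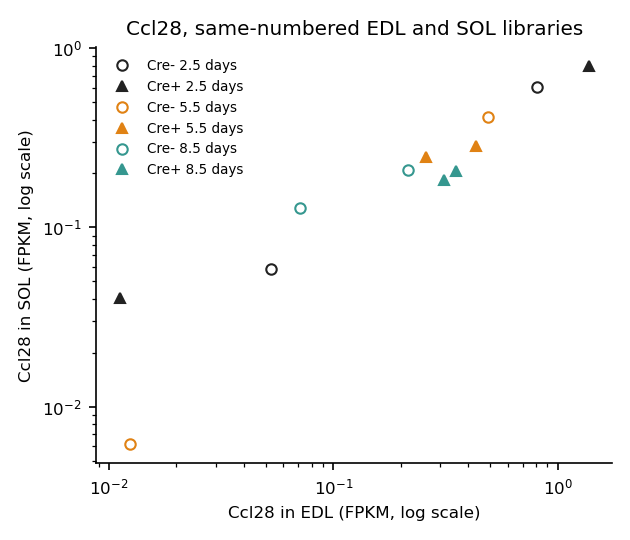
Ccl28 in SOL against EDL libraries of the same number (FPKM, both axes log scale), 12 pairs, with black for 2.5, orange for 5.5 and green for 8.5 days, open circles for Cre- and filled triangles for Cre+. The pairs lie along a rising line, with high and low pairs within the same genotype and day.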

How the data were processed

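PolyA RNA of whole muscles was sequenced. Per the study's methods and the submitters' processing notes, the authors aligned reads to mm10 with STAR 2.5.3a, and HOMER then gave each RefSeq gene its raw count of uniquely aligned exon reads. FPKM was computed from these counts, the exon length in the table and the library total. Counts were fitted with edgeR 4.0.16 in R 4.3.3 (quasi-likelihood, TMM, filterByExpr with a minimum count of 10) on the 16 libraries of 2.5 and 8.5 days (15372 genes), and on all 24 for 5.5 days (15478 genes). DESeq2 1.42.0, other scalings, filters, replicate blocks and fits without 1 library were alternatives. The fits were tested on simulated data. Values of single libraries are given, for some groups and not for all, for members chosen by rule. These were members called between Cre+ and Cre- at 2.5 days, 8.5 days or over both, and the 6 most abundant. The 3 with the largest called difference between muscles in Cre- were added. So were the pairs of Cxcl12 with Cxcr4 and Ackr3, Ccl2 with Ccr2 and Cx3cl1 with Cx3cr1. Of the pathway and inducer lists the 3 most abundant called genes are named. Members and partner genes named beyond these (Ccl5, Ccl7, Ccl9, Ccl17, Ccl22, Ccl28, Cxcl1, Cxcl9, Cxcl10, Cxcl16, Ccr1, Ccr3, Prox1, Mmrn1, Gng2, Arrb2, Col1a1, Kdr, Cldn5, the erythroid genes and the overlapping genes) were chosen after their values were seen.

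The members and gene lists were chosen with earlier results of these data known, and the comparison of days was added. Same-numbered EDL and SOL libraries of a group deviated together (r = 0.17 to 0.44 in 6 of 6 groups), so the number was used as a mouse in a blocked fit between muscles, although the labels do not say that a number is 1 mouse. Exon overlaps came from GENCODE vM21 and promoters from RefSeq. Intervals cover counting error only. With totals of 36088781 to 54679082 counts, 3 counts, the floor used here, equal 0.0549 to 0.0831 CPM. Some results for single genes are not reported here.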

Additional observations from a re-analysis of the deposited data

How the results depend on the processing

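None of the 49 called differences of single members changed sign under the alternatives run, and 671 of their 810 alternative values stayed called and 139 did not. Summaries did turn with library size alone in EDL: the median of the members at 2.5 days went from -0.18 to 0.14, and the calls over both days from 1 higher and 3 lower to 4 higher and 0 lower. In EDL at 8.5 days, where edgeR called 0 members, DESeq2 on the same libraries, library size alone and no filter on low counts each called 2, and a minimum of 10 counts in every library, the replicate block with the number within a day and DESeq2 on the 4 libraries of the comparison each called 1. Between days, the 15 members of EDL became 8 with at least 10 counts in every library, where fewer genes were tested, 4 with Cre- libraries only and 9 with Cre+ libraries only. The 11 members of SOL became 5, 2 and 5 under these settings, where the last 2 use fewer samples. Otherwise the cause was not tested. Leaving out 1 library gave 0 to 3 members in EDL at 2.5 days, 0 to 2 at 8.5 days and 1 to 4 over both. It gave 0 to 1 in SOL over both days, 0 to 1 for the difference of the change between muscles, 6 to 9 and 7 to 10 between muscles in Cre- and Cre+, and 8 to 14 and 8 to 10 between days in EDL and SOL. Where an arm kept 1 library, it was assumed to vary like the other groups.

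With the number as a mouse, the replicate block gave 6 members between muscles in Cre-, 12 in Cre+ and 0 for the difference of the change. Cre+ and Cre- libraries of the same number share only a number (r = -0.17 to 0.058), and the block on it gave 4 members in EDL at 2.5 days, 5 over both days and 0 in each SOL comparison. Between days, which hold different animals, libraries also share only a number (r = -0.042 to 0.25 in the 4 pairs of groups), and the replicate block on the number across days gave 12 members in EDL and 15 in SOL.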
